A study of Mus musculus with 13 samples.

Results

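The genes described here make and clear amyloid-beta. They are the amyloid precursor gene App, the beta-secretase Bace1, the gamma-secretase genes Psen2, Ncstn, Aph1a and Psenen, the alpha-secretase Adam10, and the amyloid-degrading proteases Mme and Ide. They were taken by name from a table of 56980 Ensembl genes, and all 9 passed the filter on low counts that left 17549 genes to test. The table comes from bulk RNA sequencing of 13 hippocampus samples, all from males at 9 months of age. Every sample came from a mouse with AppNL-G-F, a knock-in that puts familial Alzheimer's disease mutations and a humanised amyloid-beta stretch into the mouse's own App gene, and with floxed Lpcat3 (Lpcat3 f/f). The knockout group (n = 7) also carried vav1-CRE and the control group (n = 6), labelled WT, did not. The labels give tamoxifen by gavage (20 mg/ml, 0.2 mg per g body weight) for all 13. The vav1 promoter drives Cre in blood-forming cells and their descendants, not in neurons, whereas the App knock-in was carried by all cells in both groups. The comparison asks whether Lpcat3 deletion by vav1-CRE came with other transcript levels of the amyloid-producing and amyloid-degrading machinery in a brain with plaques.

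App is a membrane protein that is cut along competing routes. Cutting by Bace1 and then by the gamma-secretase complex releases amyloid-beta, whereas Adam10 cuts inside the amyloid-beta stretch and so prevents its release. The gamma-secretase complex joins a catalytic presenilin (Psen2 is a presenilin gene) with nicastrin (Ncstn), Aph1 and Pen-2 (Psenen). Neprilysin (Mme), a membrane-bound zinc protease, and insulin-degrading enzyme (Ide) break amyloid-beta down once it is free. Hippocampal neurons express most of these genes, and glia express several of them.

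The coding stretches below come from the GENCODE M21 mouse transcripts on GRCm38, an older build than the submitters' GRCm39, and show the reference allele. The App stretch is shown because the knock-in alters it in every library here. It holds the amyloid-beta coding stretch with codons on either side (exons 16 and 17 of 18, chr16:84962767-84965741, minus strand, with the intron between them left out). Capitals mark the 4 codons whose residues the N, L, G and F substitutions replace. The other 4 stretches show the catalytic sites of the proteases compared, with the active-site or zinc-binding motif in capitals. They lie in exons 1 and 2 of Bace1 (chr9:45839286-45852932, plus strand), exons 9 and 10 of Adam10 (chr9:70754284-70761597, plus strand), exons 18 and 19 of Mme (chr3:63362003-63364763, plus strand) and exon 2 of Ide (chr19:37329118-37329168, minus strand).
App: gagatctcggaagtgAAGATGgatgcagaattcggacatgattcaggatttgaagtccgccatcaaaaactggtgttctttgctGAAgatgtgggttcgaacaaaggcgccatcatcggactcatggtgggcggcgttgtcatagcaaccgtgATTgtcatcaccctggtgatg
Bace1: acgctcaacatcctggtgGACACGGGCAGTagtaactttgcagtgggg
Adam10: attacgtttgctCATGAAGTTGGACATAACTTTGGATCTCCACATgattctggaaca
Mme: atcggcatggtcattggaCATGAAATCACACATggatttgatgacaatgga
Ide: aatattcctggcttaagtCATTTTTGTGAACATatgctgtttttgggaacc
Bace1 is an aspartyl protease and its motif holds a catalytic aspartate. Adam10 and Mme share the zinc-binding motif of classical metalloproteases, and Ide carries that motif in inverted order. Reads from the knock-in allele differ from the reference at the marked App codons in both groups alike. They also differ at the humanised codons of amyloid-beta, which are not marked. What these differences did to App counts was not tested.

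Libraries held 12159941 to 18322559 counted reads. Lpcat3, the targeted gene, was at 24.7 to 30.3 CPM (counts per unit of library size; median 28.2) in controls and at 17.3 to 24.3 CPM (median 19.0) in knockouts, so the groups did not overlap. Its log2 fold change was -0.45 (SE 0.088), with an adjusted p of 0.096 by the quasi-likelihood test of edgeR but of 0.0020 by DESeq2. Hippocampal neuron markers were present throughout (8 of 8 passed the filter, summing to 660 to 788 CPM per library), and choroid plexus markers varied from 352 to 9776 CPM. Septum markers summed to 60.7 to 111 CPM in controls and to 57.3 to 67.9 CPM in knockouts. Striatum markers summed to 100 to 149 CPM in controls and to 86.3 to 145 CPM in knockouts. What part septal or striatal tissue had in the values below was not tested. Each label carries its own number, but the labels do not say that the number marks an animal, and the p-values reflect sample-to-sample spread that could be technical. Bulk tissue cannot tell fewer cells of a type from less RNA per cell.

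No difference between the groups passed the test for any of the 9 genes. At an adjusted p under 0.05 in edgeR, 0 of 9 were called, where 0.0228% of all genes tested were called (4 of 17549). At an unadjusted p under 0.05 the count was also 0 of 9, against 12.5% of all genes (5.23% higher and 7.25% lower in the knockout), and DESeq2 called 0 of the 8 to which it gave an adjusted p. In CPM the knockout and control ranges overlapped for all 9, while 0.444% of all genes tested had ranges that did not overlap. The log2 fold changes ran from -0.17 (Psenen) to 0.08 (Ide), with 4 of 9 above 0, where 48.7% of all genes tested were above 0. Their median was -0.02, and that of all genes tested was -0.004.

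**Figure D1:**
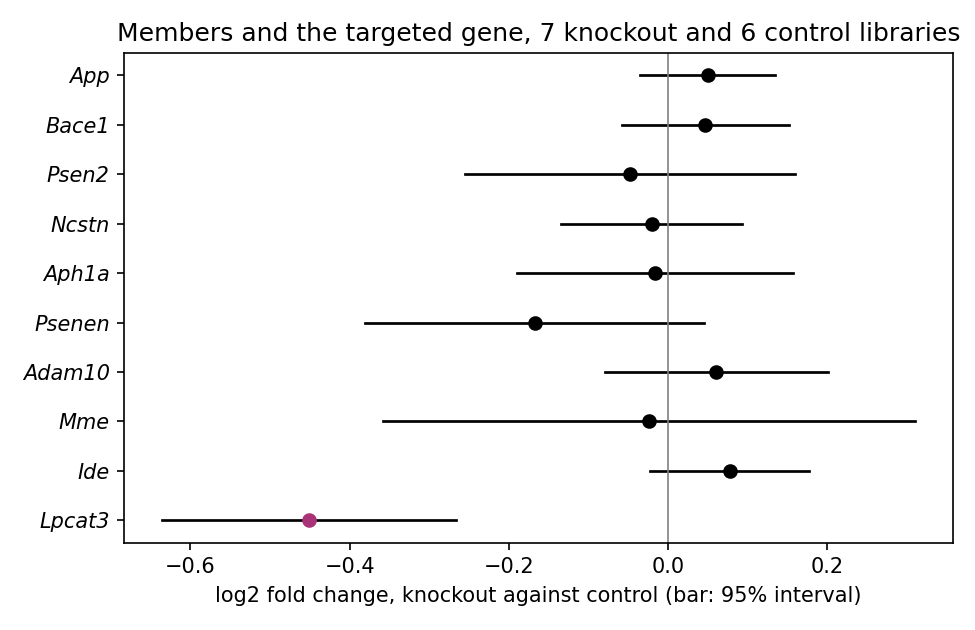
Log2 fold change of each gene in the knockout against the control (points) with its 95% interval (bars) from edgeR, 7 knockout and 6 control libraries. The intervals of all 9 amyloid genes cross 0, App has the narrowest (-0.03 to 0.13) and Mme the widest (-0.36 to 0.31), while that of Lpcat3, the targeted gene, lies below 0.

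App, the source of amyloid-beta, was at 1196 CPM in the lowest control, 1266 at the median and 1363 in the highest. In the knockouts it was at 1269, 1319 and 1334 CPM. The knockouts all lay inside the control range, between control replicate 2 and control replicate 3. The means were 1263 ± 61.8 CPM (SD, n = 6) and 1307 ± 23.7 CPM (SD, n = 7). The log2 fold change was 0.05 (SE 0.040; adjusted p = 0.65 in edgeR), and the 95% interval of the fold change ran from 0.976 to 1.10. App took 0.121% to 0.135% of all reads in each library. After the group means were removed, its spread between libraries (SD 0.051 on the log2 scale) was wider than that of only 4.35% of the 299 genes nearest to it in level.

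Bace1, which makes the cut that starts amyloid-beta release, was at 75.5, 78.6 and 86.4 CPM (lowest, median, highest) in controls and at 76.3, 81.8 and 88.8 CPM in knockouts. The ranges nearly coincided. The log2 fold change was 0.05 (SE 0.050; adjusted p = 0.75 in edgeR), with a 95% interval of the fold change from 0.960 to 1.11. In GENCODE M21 15.4% of the exon bases of Bace1 overlap Rnf214 on the opposite strand, 15.0% overlap Gm49338 and 2.13% overlap Gm16536. The strand setting of the counting is not given in the sources used here, so that reads of an overlap cannot be told apart. The same holds for 12.9% of the exon bases of Aph1a (Car14), 4.91% of those of Ncstn (Copa) and 0.870% of those of App (Gm49227). In Psenen it holds for 9.33% (U2af1l4) and 8.71% (Gm49396), whereas Psen2, Adam10, Mme and Ide had no such overlap.

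Adam10, the competing alpha-secretase, was at 104, 128 and 138 CPM in controls and at 115, 127 and 141 CPM in knockouts. The 2 lowest values belonged to control replicates 5 and 6, at 108 and 104 CPM, below all other libraries. The log2 fold change was 0.06 (SE 0.067; adjusted p = 0.76 in edgeR), with a fold between 0.946 and 1.15. Without the samples numbered 4301 to 4307, which include those controls, it was -0.04. The balance of Bace1 to Adam10 within a library, as a log2 ratio of levels per exon length, had a mean of -0.999 in controls (SD 0.15, range -1.24 to -0.82). In the knockouts the mean was -1.02 (SD 0.11, range -1.22 to -0.92). The knockout range of this ratio lay within the control range.

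Among the gamma-secretase genes, Ncstn, the gene of the substrate-binding subunit nicastrin, was at 98.2, 103 and 116 CPM in controls and at 94.0, 104 and 115 CPM in knockouts (log2 fold change -0.02, SE 0.054). Aph1a, a scaffold subunit gene, was at 27.4, 28.8 and 36.9 CPM in controls and at 27.4, 28.5 and 34.6 CPM in knockouts (-0.02, SE 0.083). Psen2 was at 9.22, 10.7 and 12.97 CPM in controls and at 9.12, 9.93 and 11.7 CPM in knockouts (-0.05, SE 0.099). For these 3 genes the group ranges almost coincided and adjusted p lay between 0.89 and 0.96 in edgeR. The 95% intervals of the fold change ran from 0.911 to 1.07 for Ncstn, from 0.877 to 1.11 for Aph1a and from 0.838 to 1.12 for Psen2.

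Psenen, which encodes the small subunit Pen-2 needed for maturation of the complex, had the lowest fold change of the 9. It was at 13.6, 16.2 and 17.4 CPM in controls and at 11.3, 14.2 and 17.6 CPM in knockouts. Knockout replicates 3, 5 and 7 lay below every control, and knockout replicate 4 lay above every control. The log2 fold change was -0.17 (SE 0.10; adjusted p = 0.53 in edgeR) and the 95% interval of the fold change ran from 0.768 to 1.03. The transcript is short, with a longest form of 708 bases. With trends of length and GC content removed per library, the log2 fold change was -0.06 (adjusted p = 0.86 in limma). With the run of label numbers as a term it was -0.25 (edgeR unadjusted p = 0.027, adjusted 0.54). With the myelin marker score as a covariate it was -0.27 (edgeR unadjusted p = 0.022, adjusted 0.53). Without knockout replicate 4 it was -0.23 (edgeR unadjusted p = 0.027, adjusted 0.35). The unadjusted p of the main edgeR fit was 0.12.

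Of the degrading proteases, Ide was at 71.6, 81.1 and 82.9 CPM in controls and at 79.3, 82.0 and 91.7 CPM in knockouts. Control replicates 3 and 5 lay below every knockout and knockout replicates 1, 2 and 7 above every control. The log2 fold change was 0.08 (SE 0.047; adjusted p = 0.53 in edgeR), the highest of the 9, with a fold between 0.985 and 1.13. Mme was at 4.28, 6.05 and 7.45 CPM in controls and at 4.45, 5.68 and 8.18 CPM in knockouts, from 60 to 133 reads per library. Its values varied most among the 9 genes, and the group ranges again overlapped almost entirely. The log2 fold change was -0.02 (SE 0.16; adjusted p = 0.97 in edgeR), and the 95% interval of the fold change ran from 0.780 to 1.24. It was -0.16 with the run of label numbers as a term and -0.22 with the myelin marker score as a covariate, again with no call.

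Set side by side as CPM per kb of exon, which allows genes of different length to be compared, the 9 genes covered a wide range of levels. App stood highest at 99.0 ± 3.77 (SD, n = 13). Ncstn (26.3 ± 1.77) and Adam10 (25.6 ± 2.35) came next and did not differ beyond their spread: Ncstn was higher in 6 of 13 libraries. Bace1 (12.7 ± 0.76), Psenen (11.7 ± 1.58), Ide (10.8 ± 0.63) and Aph1a (8.80 ± 0.96) followed. Neighbours among these 4 overlapped in range, with Bace1 above Psenen in 10 of 13 libraries and Psenen above Ide in 9 of 13, although Ide exceeded Aph1a in 13 of 13. Psen2 (2.42 ± 0.27) and Mme (0.511 ± 0.11) came last, and ranges did not overlap between Aph1a and Psen2 or between Psen2 and Mme. The steps were 3.77-fold from App to Ncstn, 2.02-fold from Adam10 to Bace1, 3.64-fold from Aph1a to Psen2 and 4.73-fold from Psen2 to Mme.

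**Figure D2:**
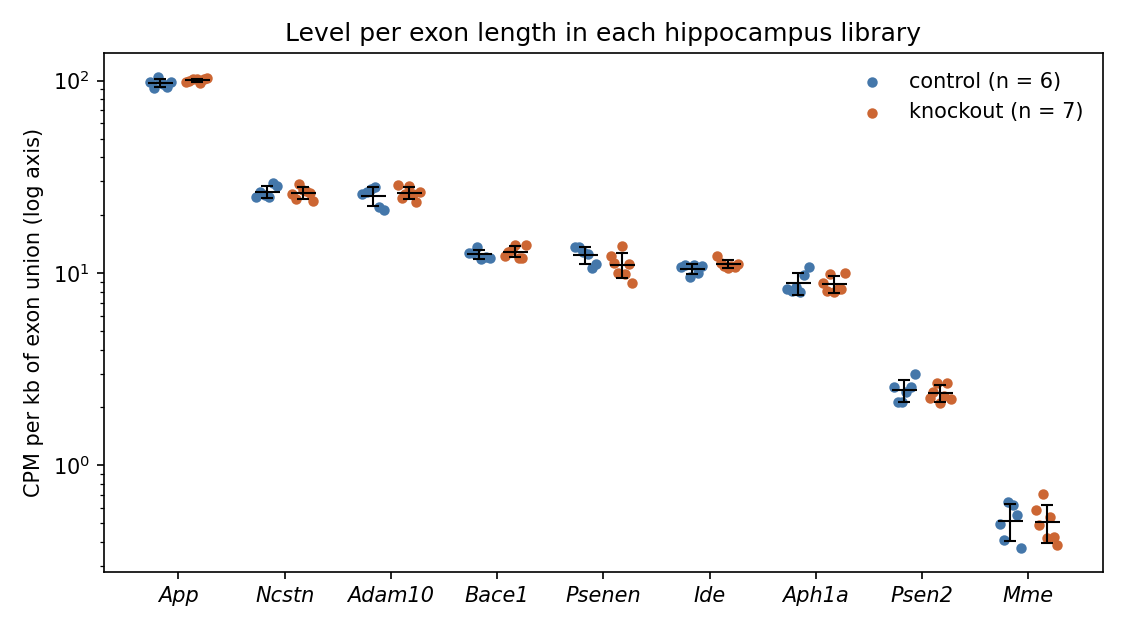
CPM per kb of exon union (log axis) for each of the 9 genes in each library, controls and knockouts side by side, with the group mean ± SD in black. App lies near 99.0 and Mme near 0.511, and for every gene the points of the groups overlap.

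In rank among the genes tested with a known length, App stood at place 304 by level per exon length and Ncstn at place 1842, whereas Mme stood at place 15491. The level of Bace1 per exon length was 0.497 times that of Adam10 on the geometric mean over libraries, and that of Mme was 0.0463 times that of Ide. Among the 4 gamma-secretase genes here, Ncstn held 53.4% ± 1.87 of the summed level per exon length, Psenen 23.7% ± 3.09, Aph1a 17.9% ± 1.83 and Psen2 4.92% ± 0.48 (SD, n = 13). These values depend on the exon model. With the longest transcript in place of all exons, 6 of the 9 genes kept their place: Psenen moved from place 5 to 4, Ide from 6 to 5 and Bace1 from 4 to 6. The levels themselves were then over 1.5 times higher for App (to 158 CPM per kb), Psenen (20.9996), Ide (16.4) and Psen2 (5.18), with Adam10 at 27.4, Bace1 at 13.3 and Aph1a at 10.6, so that the size of the steps above depends on the exon model.

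The 9 genes did not vary as a block from library to library. Over the 36 pairs of genes, Pearson's r of log2 CPM over the 13 libraries had a median of -0.05 and ran from -0.76 to 0.59, with 14 pairs above 0. Without the samples numbered 4301 to 4307 the median was 0.11 with 23 pairs above 0, and with group means removed it was 0.0021 with 18. After Benjamini-Hochberg adjustment over the 36 pairs 0 passed, and 3 had an unadjusted permutation p under 0.05. Psen2 and Adam10 were opposed most (r = -0.76, permutation p = 0.0020, adjusted 0.073; rho = -0.68, p = 0.013, adjusted 0.23). Without control replicate 6 and knockout replicate 4 their r was -0.57. Aph1a and Psenen, subunits of the same complex, were also opposed (r = -0.63, permutation p = 0.022, adjusted 0.38; rho = -0.64, p = 0.020, adjusted 0.25), with r = -0.58 without control replicate 6 and knockout replicate 7. App and Bace1 varied in the same direction (r = 0.59, permutation p = 0.032, adjusted 0.38; rho = 0.73, p = 0.0069, adjusted 0.23), with r = 0.78 without control replicates 2 and 5.

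**Figure D3:**
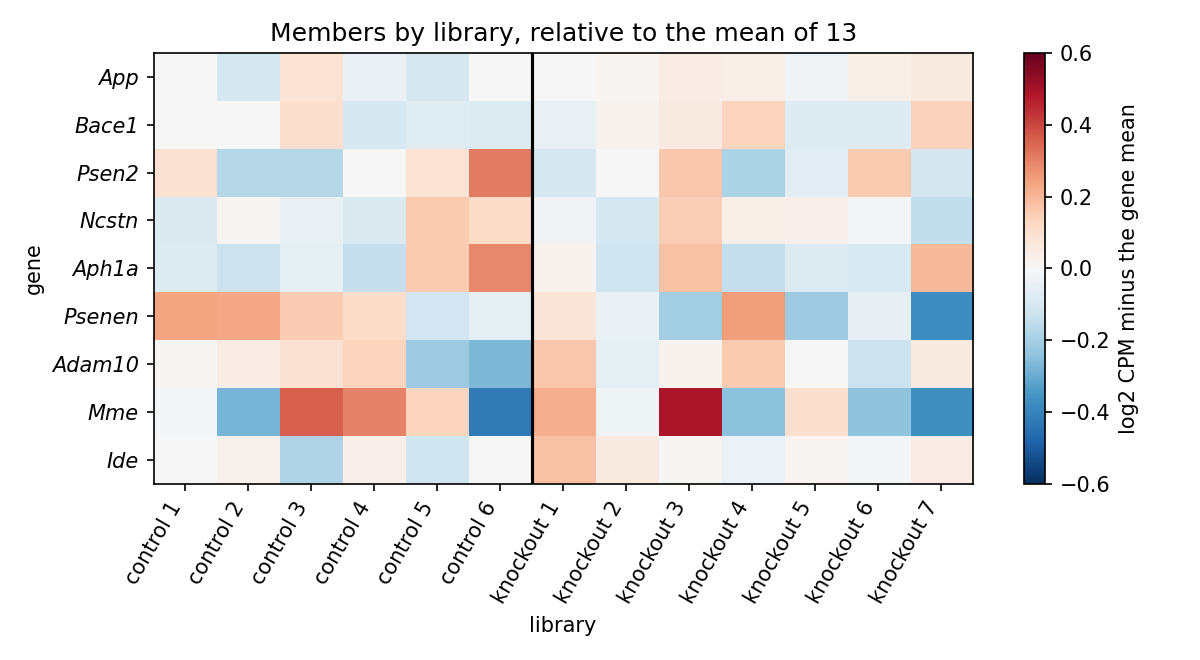
Log2 CPM of each gene in each library minus the gene's mean over the 13 libraries, controls left of the line and knockouts right of it, red above and blue below the mean. No gene separates the groups, App and Bace1 stay near their means, and Mme ranges from 4.28 CPM in control replicate 6 to 8.18 CPM in knockout replicate 3.

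The sample numbers in the labels fall into 3 runs. The first held 5 knockout libraries beside a lone control, the second a lone knockout beside 3 control libraries, and the third a lone knockout beside 2. What a run stands for is not stated. The knockout minus control difference in mean log2 CPM kept its sign in all 3 runs for App (0.02, 0.06 and 0.10), Ide (0.05, 0.03 and 0.11) and Psenen (-0.26, -0.22 and -0.29). It changed sign between runs for Adam10 (0.05, -0.22 and 0.30), Mme (0.12, -0.37 and -0.23), Bace1 (0.02, -0.08 and 0.22), Psen2 (-0.13, 0.27 and -0.31), Ncstn (0.10, 0.03 and -0.28) and Aph1a (0.05, 0.02 and -0.03). Each of these differences rests on a single library of one of the groups.

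The libraries differed widely in markers of the choroid plexus, the epithelium inside the ventricles. The 8 markers summed to 2784 to 9776 CPM in 7 libraries (4 controls, 3 knockouts) and to 352 to 638 CPM in the other 6 (2 controls, 4 knockouts). In the libraries rich in these markers Mme was at 4.28 to 6.36 CPM in controls and 6.19 to 8.18 CPM in knockouts, a log2 fold change of 0.42. In the poor ones it was at 7.14 and 7.45 CPM in the 2 controls and at 4.45 to 5.68 CPM in the 4 knockouts, a log2 fold change of -0.55. The difference between these changes was 0.98 (SE 0.25). Its unadjusted p of 7.9e-04 stood at place 30 among 17549 genes, but the adjusted p was 0.46 in edgeR. Over all genes tested, this interaction was called for 0.00570% and had an unadjusted p under 0.05 for 6.43%. For Adam10 the difference was 0.27 (SE 0.12; adjusted p = 0.77 in edgeR). This split was made after the data had been seen, and what part choroid plexus tissue had in the Mme values was not tested. The 3 correlations described above were picked over these same libraries. Their r in the rich and the poor libraries is therefore a description and not a second test. For Psen2 with Adam10 it was -0.72 in the rich libraries and -0.79 in the poor ones. For Aph1a with Psenen it was -0.53 and -0.86, and for App with Bace1 0.31 and 0.70.

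**Figure D4:**
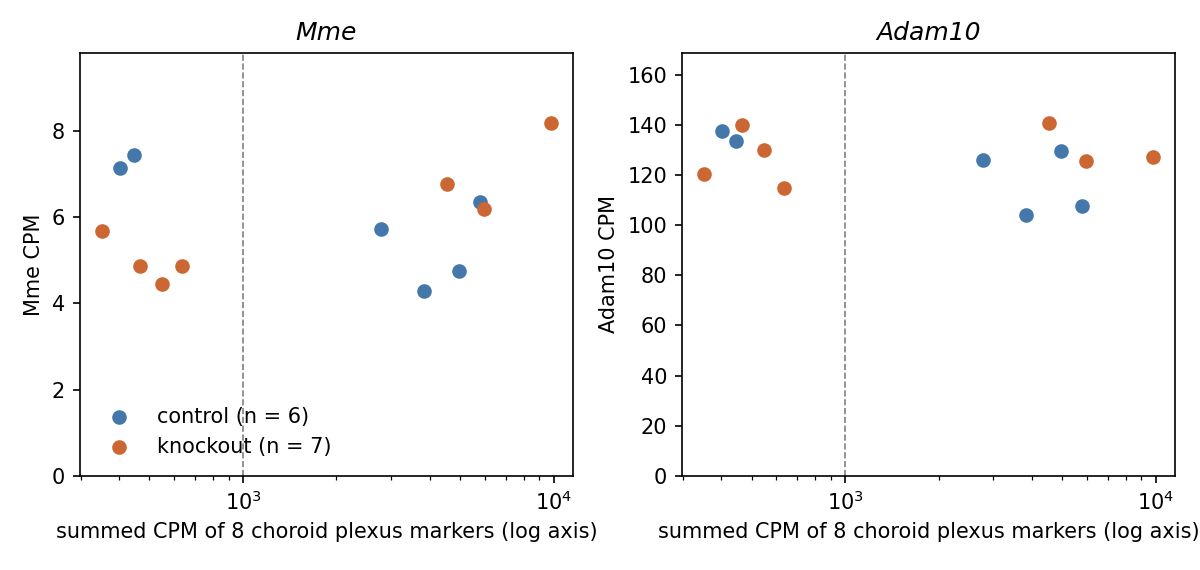
Mme (left) and Adam10 (right) in CPM against the summed CPM of 8 choroid plexus markers (log axis), one point per library, with the dashed line at 1000 CPM. Left of the line both controls lie above all 4 knockouts for Mme, and right of it the 3 knockouts lie at 6.19 to 8.18 CPM and the 4 controls at 4.28 to 6.36 CPM.

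Other genes of the pathway were taken from 8 lists of 118 genes in all, of which 113 were tested. In edgeR 0 were called in either direction. At an unadjusted p under 0.05 there were 13 (8 higher and 5 lower in the knockout), 11.5% of the 113 and close to the 12.5% of all genes tested. DESeq2 called 4 of the 104 to which it gave an adjusted p, or 3.85%, against 1.76% of all genes it tested: Plat higher, and Cst3, Apoe and Heyl lower. The median log2 fold change of the 113 was 0.01.

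In the list of App relatives and adaptors 0 of 13 were called. Aplp1, a neuronal relative of App, was at 1361 and 1403 CPM in controls and knockouts (log2 fold change 0.04, SE 0.048), and Itm2b, whose product binds App, was at 1056 and 1043 CPM (-0.02, SE 0.048). The adaptor gene Apba2 had the smallest p of this list (0.13, SE 0.052; adjusted p = 0.32 in edgeR), followed by Apba1 (-0.11, SE 0.062). Among 20 genes of App sorting and endocytosis 0 were called. At an unadjusted p under 0.05 there were 4 (3 higher and 1 lower), or 20%, against 12.5% of all genes tested. Sorcs1, a sorting receptor gene, was at 12.3 and 9.15 CPM (-0.42, SE 0.12; adjusted p = 0.19 in edgeR), and Vps26b, of the retromer coat, at 145 and 159 CPM (0.13, SE 0.048; adjusted p = 0.27). Sort1 (-0.01) and Rtn3 (0.08), the most abundant of that list, had unadjusted p over 0.05.

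Of the other secretases and App-cleaving proteases 0 of 9 were called, and 0 had an unadjusted p under 0.05. Bace2, the relative of Bace1, was at 5.77 and 6.29 CPM (0.12, SE 0.16), and Adam9 at 90.6 and 94.2 CPM (0.05, SE 0.042). The cathepsin gene Ctsb (-0.00) and Lgmn (-0.04), which encodes a protease of the endolysosome, were the most abundant. Among 16 partners and regulators of the secretases 0 were called, with Tmed10 (-0.16, SE 0.078) and Tspan17 (-0.14, SE 0.079) having the smallest p and Hspa5 (0.19, SE 0.12) and Bsg (-0.16, SE 0.13) the highest levels. Among 20 genes of secretase substrates 0 were called. Notch1 was at -0.15 (SE 0.084), Cntnap2 at -0.08 (SE 0.045), Prnp at 0.06 (SE 0.048) and Cx3cl1 at 0.06 (SE 0.045). Of 6 Notch target genes, whose transcription follows the release of the Notch intracellular domain by gamma-secretase, 0 were called in edgeR. At an unadjusted p under 0.05 there were 2 (1 higher and 1 lower), or 33.3%, against 12.5% of all genes tested. The log2 fold change was above 0 for 5 of the 6, against 48.7% of all genes tested. Heyl was at 9.20 and 6.45 CPM (-0.52, SE 0.12; adjusted p = 0.098 in edgeR, 0.010 in DESeq2), whereas Hes5 (0.24, SE 0.12), Hes1 (0.17, SE 0.13) and Hey1 (0.09, SE 0.064) were above 0.

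Among 15 other amyloid-degrading proteases 0 were called in edgeR. Plat, tissue plasminogen activator, was at 70.1 and 82.1 CPM (0.23, SE 0.058; adjusted p = 0.14 in edgeR, 0.017 in DESeq2). The lysosomal protease gene Ctsd was at 602 and 551 CPM (-0.13, SE 0.080) and Htra1 at 169 and 167 CPM (-0.02, SE 0.063). Of 14 genes of amyloid binding and clearance 0 were called in edgeR, 10 were below 0 and the median was -0.07. At an unadjusted p under 0.05 there were 5 of 14 (2 higher and 3 lower), or 35.7%, against 12.5% of all genes tested. This list and the others were written with earlier results of these data known. Their shares are therefore a description and not a test against all genes. Cst3, the cystatin C gene, was at 904 and 721 CPM (-0.33, SE 0.069), Apoe at 1235 and 1020 CPM (-0.27, SE 0.060), each with an adjusted p of 0.097 in edgeR. The adjusted p of both was about 0.005 in DESeq2 (0.0049 and 0.0051). Clu, the clusterin gene, was at 1173 and 1084 CPM (-0.11, SE 0.080). Microglia express Cst3 and Apoe in brains with plaques. The 9 microglia markers summed to 804 to 933 CPM in controls and 751 to 890 CPM in knockouts. The 6 astrocyte markers summed to 4513 to 4957 CPM in controls and 4390 to 4955 CPM in knockouts. What part either cell type had in the Cst3 and Apoe values was not tested. Without control replicate 1 edgeR called Cst3, Apoe, Heyl and Sorcs1, all lower in the knockout. That fit called more genes of every kind, 80 of 17757 tested, against 4 of 17549 with all libraries. No fit that left out another single library called any gene of the 8 lists.

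**Figure D5:**
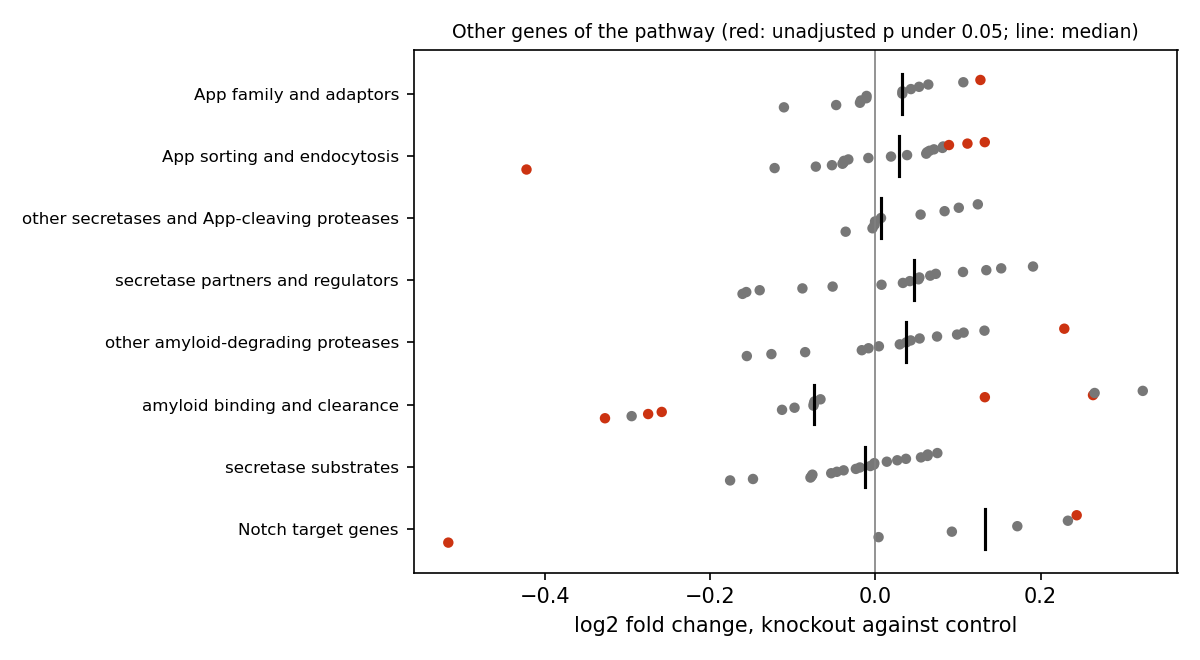
Log2 fold change, knockout against control, of the 113 tested genes in the 8 other lists, a point per gene, red where the unadjusted edgeR p is under 0.05 (13 genes) and with the list's median as a black line. The points of most lists lie near 0, and Heyl (-0.52) and Sorcs1 (-0.42) lie lowest.

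For each of the 9 genes, the genes of most similar pattern over the 13 libraries were sought among all 17549, by Pearson's r of log2 CPM with group means removed. None of the 9 was among the 3 nearest of another. The nearest to App were Ccn3 (r = 0.90), Rab3c (0.89) and Mpped1 (0.88), and the most opposed was Gm14412 (-0.92). The nearest to Bace1 were Zswim6 (0.87), Commd7 (0.83) and Gm16794 (0.83), with Dennd1b most opposed (-0.93). Adam10 was nearest to Usp19 (0.94), Abat (0.92) and Arih1 (0.91), with Arl1 opposed (-0.94). Among the gamma-secretase genes, Ncstn was nearest to Bcam, Trim12a and Tmem176b (0.91 to 0.92), Aph1a to Orai1, Surf4 and Paics (0.90 to 0.91), Psen2 to Ppm1g, N4bp2l1 and Rab12 (0.90 to 0.91) and Psenen to Eif1ax, Fmr1 and Ahcyl1 (0.92 to 0.94). The most opposed to these were Osbpl6 for Ncstn (-0.94), Stk32b for Aph1a (-0.93), Bbs9 for Psen2 (-0.91) and Paqr4 for Psenen (-0.94). Mme was nearest to Chp2 (0.89), Bmf (0.89) and Gm3294 (0.86), all below 3 CPM, with Itpa opposed (-0.94). Ide had the least similar neighbours, Gm26653 (0.85), Cyp2r1 (0.83) and ENSMUSG00000120671 (0.82), with Rmdn1 most opposed (-0.89). Those 3 neighbours lay at only 0.745 to 0.835 CPM. These are the extremes of a search over many genes in libraries that share depth and tissue composition, and are given as a description.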

How the data were processed

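The authors deposited 1 table of whole-number read counts per Ensembl gene, not normalized, with a column for each of the 13 samples. The submitters' processing notes name the GRCm39 build, DESeq2 (1.36.0), R (4.2.0), featureCounts (2.0.3) and STAR (2.7.10a), without their roles. The sources used here do not give the annotation release, the strand setting or the treatment of multimapped reads. Per the labels' protocols, total RNA was made into libraries with the SMART-Seq mRNA LP kit.

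The knockout was set against the control in edgeR (4.0.16, under R 4.3.3) by its quasi-likelihood test, with TMM scaling, the filterByExpr filter and no covariate. P-values were adjusted by Benjamini-Hochberg over 17549 genes, with a threshold of 0.05. DESeq2 (1.42.0) and limma (3.58.1) served as alternatives. Standard errors came from the F statistic and 95% intervals from the t distribution. CPM used the TMM scaling, and log2 CPM a prior count of 2. Exon lengths came from GENCODE M21 (GRCm38). Correlations were tested with 100000 permutations, two-sided. Pairs of libraries within a group differed beyond counting noise in all 36 cases, with a chi-square of 3.14 to 21.2 for each gene on average.

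The 9 genes and the lists were chosen with earlier results of these data known. Beside the 9 genes and Lpcat3, the text names from each list the 2 genes of smallest p and the 2 most abundant, and for each of the 9 genes the 3 nearest patterns and the most opposed. The scripts were tested on simulated counts.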

Additional observations from a re-analysis of the deposited data

Results flagged for a closer look

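Of 20 sets of values examined (the 9 genes and Lpcat3 in each group), 1 held a library far from the others. Ide, the insulin-degrading enzyme gene, was at 91.7 CPM in knockout replicate 1, and the next knockout was at 84.5 CPM, a gap of 0.585 of the whole range of the 7 knockouts. Chance marks about 1 in 20 such sets.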

How the results depend on the processing

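Across 225 alternative values of the 9 genes, 0 passed the threshold, the lowest adjusted p was 0.35, and 22 changed sign. Without the samples numbered 4301 to 4307, the log2 fold changes were 0.063 (Psen2), 0.068 (Ncstn), 0.068 (Aph1a) and -0.037 (Adam10). Aph1a was at 0.0072 with limma-voom, 0.018 with the run as a term, 0.0036 with the choroid plexus score and 0.038 with the myelin score as covariates. Splits by choroid plexus content, chosen after seeing the data, gave 0.42 (Mme) and 0.0019 (Ncstn) in the rich libraries and 0.062 (Psen2), 0.017 (Ncstn), 0.065 (Aph1a) and -0.098 (Adam10) in the poor ones. Leaving out each library in turn gave -0.081 to 0.023 (Psen2), -0.043 to 0.014 (Ncstn), -0.051 to 0.053 (Aph1a) and -0.12 to 0.061 (Mme). The cause of these changes was not tested.

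Over all genes, edgeR called 4, against 204 in DESeq2, 66 without the count filter, 1 with a mean count of at least 50, 79 with the choroid plexus score, and 3 to 80 with a library left out (80 without control replicate 1). Of the other pathway genes it called 0, against 4 in DESeq2, 2 without the filter, 2 with the choroid plexus score, and 0 to 4 with a library left out. Lpcat3 passed the threshold in 5 settings: DESeq2 (-0.44), no filter (-0.44), the choroid plexus score (-0.44), and without knockout replicate 3 or control replicate 1. With the run as a term it was at -0.35 (adjusted p = 0.49 in edgeR) and with the myelin score at -0.44 (adjusted p = 0.43). With a library left out it lay between -0.50 and -0.41. Read number limits Mme most, at 60 to 133 reads per library. No paired analysis was possible because the labels give the groups no shared replicate number.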
